A study of Homo sapiens with 2 samples.

Results

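The genes described here are 10 genes of peptide hormone production: the prohormone genes GCG and NTS, the granin genes CHGA, CHGB, SCG2, SCG3 and SCG5, the prohormone convertase genes PCSK1 and PCSK2, and the carboxypeptidase E gene CPE. They were chosen by gene symbol, with results of the same comparison already known, so their differences are a description and are supported by no test. The platform annotation used here pairs 8 of the 10 with 9 probe sets, out of 19775 named genes in all, and array values of PCSK1 and PCSK2 were not analysed here. The samples were 2 human prostate cancer cell lines with 1 Affymetrix array each. C4-2B is a castration-resistant line derived from LNCaP and is sensitive to enzalutamide, an antiandrogen. C4-2B-MDVR is the resistant line, obtained from C4-2B by growing it in enzalutamide for a long time. Both lines grew in RPMI-1640 with 10% fetal bovine serum and were untreated before RNA extraction, and whether the resistant line is 1 clone is not given in the sources used here. The free-text description of the resistant sample names a docetaxel-resistant line, TaxR, against its title, source and cell line labels. The cell line label was followed, so a positive difference means a higher value on the array labelled C4-2B-MDVR.

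Peptide hormones are made as larger precursors that enter the secretory pathway and are cut at pairs of basic residues by prohormone convertases. Carboxypeptidase E then trims the basic residues left at the cut ends, and the products are stored in dense-core granules. Granins are acidic proteins that help to form these granules and are themselves cut into peptides, and they serve as markers of neuroendocrine cells, including those that appear in some treated prostate cancers. Proglucagon yields glucagon in pancreatic alpha cells, and glucagon-like peptides in intestinal L cells. Neurotensin is a peptide of gut and brain that several prostate cancer lines also secrete.

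The array labelled C4-2B-MDVR had far higher GCG and higher NTS, while all 5 granins had signal below the level counted as detected on both arrays, and CPE differed by less than 2-fold. No detection calls came with the values, so each array's median intensity served as the detection floor (41.9 in C4-2B, 43.5 in the resistant line). A gene was counted as above the floor when its brighter array reached that level. Of the 8 genes 3 did so (GCG, NTS and CPE), 2 of these were 2-fold or more higher in C4-2B-MDVR and 0 were 2-fold or more lower. Of all 13437 named genes that passed the floor, 3.17% were higher by 2-fold or more and 3.5% lower. When each value under the floor is replaced by the floor, which gives the bounds below, GCG and NTS were still 2-fold or more higher, as were 2.76% of all genes, and 3.14% were lower. These shares are given for scale only, since the genes were picked with this contrast known. Each line has 1 array, so the spread between replicates is unknown, differences are given without p-values or SEs, and precision is limited by the number of arrays.

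**Figure D1:**
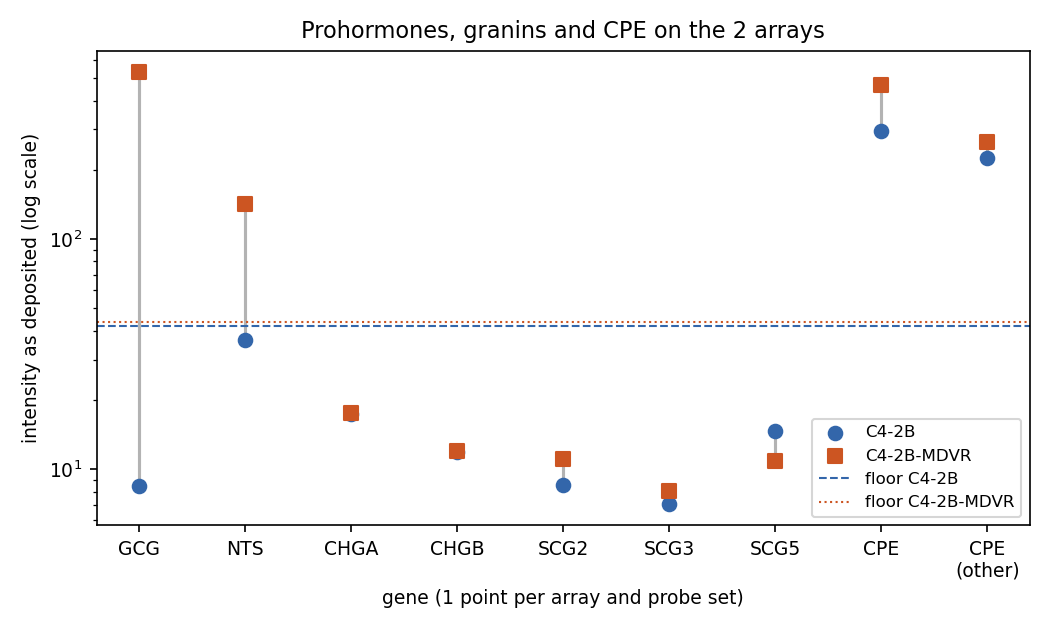
Intensity as deposited (log axis) of each probe set on the C4-2B array (circles) and the C4-2B-MDVR array (squares), with 1 point per array and each array's detection floor as a horizontal line. GCG goes from 8.46 to 531 and NTS from 36.4 to 142, both across the floor, the 5 granins lie between 7.08 and 17.5 on both arrays, and both CPE probe sets lie above the floor on both arrays.

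GCG encodes proglucagon, the precursor of glucagon and of the glucagon-like peptides. Its 1 probe set had an intensity of 8.46 on the C4-2B array and of 531 on that of the resistant line. The C4-2B value lay under the floor by 2.31 on the log2 scale. With the C4-2B floor in place of that value, GCG was at least 12.7-fold higher in C4-2B-MDVR. The measured log2 difference was 5.97. In bulk RNA a change in the number of cells with GCG and a change in the GCG RNA of each cell cannot be told apart. The size of the bound depends on the floor: it was at least 33.6-fold with the 25th percentile of each array, at least 18.5-fold with the highest of 27 Bacillus control probe sets, and at least 3.65-fold with the 75th percentile. By measured difference 2 of the 13437 genes above the floor were at or beyond GCG, GCG included, and by bound 6 were. Of the 27337 probe sets under the floor in C4-2B, 6 had a bound at least as large as that of GCG.

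NTS encodes the common precursor of neurotensin and neuromedin N. Its 1 probe set read 36.4 in C4-2B against 142 in C4-2B-MDVR, and the measured log2 difference was 1.96. The C4-2B value was closer to its floor than that of GCG, at 0.20 below it on the log2 scale, and by bound NTS was at least 3.39-fold higher. By measured difference 116 genes (0.863% of those above the floor) were at or beyond NTS, and by bound 108. With the floor at the 25th percentile or at the highest Bacillus control, NTS was above the floor on both arrays and 3.90-fold higher. With the floor at the 75th percentile (143 in C4-2B-MDVR) NTS was under it on both arrays and could not be counted.

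**Figure D2:**
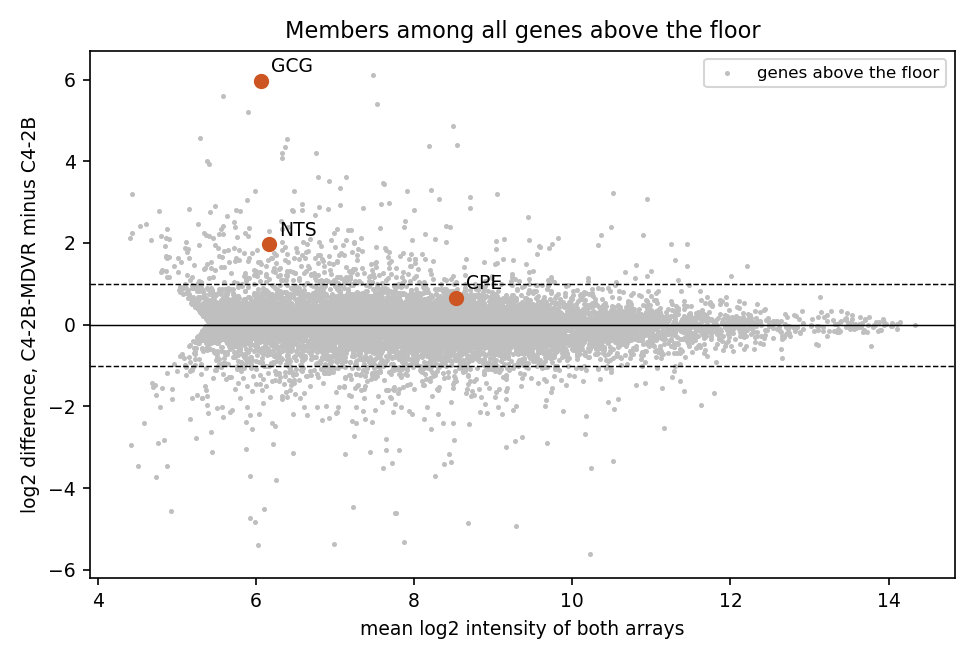
Log2 difference (C4-2B-MDVR minus C4-2B) against the mean log2 intensity of both arrays for the 13437 genes above the detection floor (grey points), with dashed lines at 2-fold. GCG (5.97) is at the upper edge of all genes, NTS (1.96) lies above the dashed line, and CPE (0.66) lies inside it.

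The DNA just before the start sites of these genes was read as a description of how the genes differ from each other. GCG and NTS went from under to over the floor, while CHGA, a standard neuroendocrine marker, stayed under it. The DNA shown is reference sequence, not that of either line, so it cannot show a difference between the lines. The sequences are the 250 bases before each start in the RefSeq table of GRCh38.p14, written 5′ to 3′ on the gene's strand. Of the 10 genes 8 matched this table, and CHGB and SCG2 did not. Capitals mark matches, on either strand, to the core of a TATA box (TATAAA), to a cAMP response element (TGACGTCA) or to the first bases of that element (TGACG, which every full element also contains). The window of GCG lies at chr2:162152248-162152497 on the minus strand, NTS at chr12:85874045-85874294 and CHGA at chr14:92922900-92923149, both on the plus strand.
GCG: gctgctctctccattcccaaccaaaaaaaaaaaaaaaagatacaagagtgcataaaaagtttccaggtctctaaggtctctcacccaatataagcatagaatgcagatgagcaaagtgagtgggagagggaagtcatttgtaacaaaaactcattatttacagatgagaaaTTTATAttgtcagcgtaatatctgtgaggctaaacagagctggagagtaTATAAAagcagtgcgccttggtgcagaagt
NTS: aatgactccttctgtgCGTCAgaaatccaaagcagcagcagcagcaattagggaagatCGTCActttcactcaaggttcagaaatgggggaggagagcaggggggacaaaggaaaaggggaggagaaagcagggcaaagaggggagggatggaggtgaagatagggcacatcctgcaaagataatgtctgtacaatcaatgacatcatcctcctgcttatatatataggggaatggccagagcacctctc
CHGA: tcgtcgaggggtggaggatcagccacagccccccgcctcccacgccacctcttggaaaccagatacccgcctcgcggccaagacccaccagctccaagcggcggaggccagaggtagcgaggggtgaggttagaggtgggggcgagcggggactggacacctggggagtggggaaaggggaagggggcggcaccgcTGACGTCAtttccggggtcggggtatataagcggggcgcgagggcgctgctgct

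GCG held the TATA core at 30 to 25 bases before its start, and a match on the other strand at 79 to 74 bases before it. Of 35116 promoters of this length 10.7% held the TATA core. Only the exact letters TATAAA were counted. The windows of NTS and CHGA hold a similar run, TATATA, close to their starts, and it was not counted. Among the genes with array values, the short form TGACG was found at 2 places in NTS, 234 to 230 and 192 to 188 bases before its start, at 2 places in CPE, at 1 place in SCG5 and within the full element of CHGA, and 21.2% of all promoters held it. The full element was found in CHGA, at 54 to 47 bases before its start, and in 1 of the PCSK1 start sites, and 1.65% of all promoters held it. Its exact letters were not in the windows of GCG, NTS, CPE, SCG3 and SCG5. The NTS window holds a similar run, TGACATCA, close to its start, and it was not counted. A further 4 motifs were searched on both strands: AP-1 (TGANTCA), the half-site of the androgen response element (AGAACA), a fork head site (TGTTTAC) and a TCF/LEF site (ATCAAAG). They are held by 6.57%, 12.4%, 2.98% and 2.26% of all promoters, and 0 of the 6 genes with array values held any of them. The share of G and C was 38.4% in GCG, 49.2% in NTS and 68.8% in CHGA, against a median of 58% over all promoters, and 10.8% of promoters were at or below GCG. A match is a run of letters and was not tested as a binding site, and a missing match says only that these letters are not in the window.

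All 5 granins were under the floor, at the median of each array, on both arrays. CHGA, chromogranin A, had an intensity of 17.4 on the C4-2B array and 17.5 on the other. With the floor at the 25th percentile (15.8 and 16.3) CHGA was above it on both arrays, and the other 4 granins were under it. CHGB, chromogranin B, had 11.9 and 12.0. The pairs of values of CHGA and of CHGB are nearly equal and under the median floor by at least 1.27 on the log2 scale. SCG2, secretogranin II and the precursor of secretoneurin, had 8.57 in C4-2B against 11.1 in C4-2B-MDVR. SCG3, secretogranin III, which links granins to the granule membrane, had 7.08 and 8.02. SCG5, the 7B2 protein that chaperones and inhibits the convertase PCSK2, had 14.7 and 10.9. Below the floor the arrays give no order, and none of these is read as a difference. Measured log2 differences ran from −0.44 for SCG5 to 0.37 for SCG2, with a median of 0.02. They lie inside the range that held the middle 95% of the 26024 probe sets under the floor on both arrays, from −0.49 to 0.53. A signal under the floor means that the probe set did not pass the level set here for detection, not that expression is absent.

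CPE, which removes C-terminal lysine and arginine from cut prohormones and is also a sorting receptor at the Golgi, was above the floor on both arrays. Its brighter probe set read 294 in C4-2B against 466 in C4-2B-MDVR (log2 difference 0.66). The other probe set read 225 and 265 (0.23). Both probe sets were higher in C4-2B-MDVR, by 1.58-fold and 1.18-fold, and neither reached 2-fold. Of all genes above the floor 6.67% had a difference at or beyond that of the brighter CPE probe set.

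The rest of the pathway was read from 8 lists of other genes. They held 136 genes, of which the annotation pairs 123 with a probe set and 86 passed the floor. Of these 86, 8 (9.30%) were higher in C4-2B-MDVR by 2-fold or more and 2 (2.33%) lower, against the 3.17% and 3.5% of all genes. By bound the counts were 7 and 2. The lists were chosen with earlier results of these data known, so these shares and counts are for scale only. The median log2 difference was 0.10 over the 86 genes and 0.04 over all genes above the floor.

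**Figure D3:**
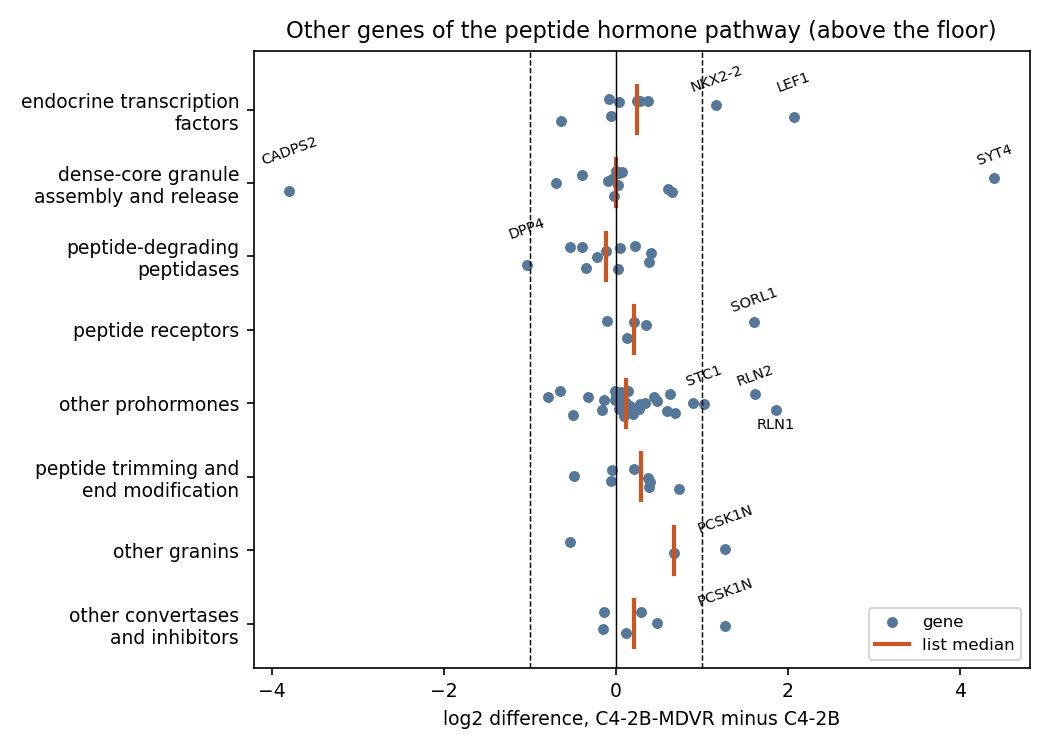
Log2 difference (C4-2B-MDVR minus C4-2B) of each gene above the detection floor in 8 lists of peptide hormone genes, with the list median as a vertical bar and dashed lines at 2-fold. Genes beyond 2-fold are named, and PCSK1N stands in both lists that hold it. Most genes lie within 2-fold, and SYT4 (4.41) and CADPS2 (−3.80) lie farthest out, in opposite directions and in the same list.

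Of the other convertases and their inhibitors 6 of 7 listed genes were above the floor, with 1 higher by 2-fold or more, 0 lower and a median of 0.21. The 1 gene was PCSK1N, whose product proSAAS is a granin-like inhibitor of the convertase PCSK1, at 58.2 in C4-2B against 141 in C4-2B-MDVR (log2 difference 1.28). FURIN, the convertase of the trans-Golgi that works in nearly all cells, had 103 and 144 (0.48). The other convertases above the floor were within 0.30 of 0, from −0.15 for MBTPS1 to 0.30 for PCSK4. PCSK5 was under the floor on both arrays. The granin-like VGF had 91.1 in C4-2B against 62.9 in C4-2B-MDVR (−0.53), opposite in sign to PCSK1N. GNAS, a signalling gene whose locus also encodes a granin-like protein, was at 0.68, with values from 0.06 to 0.73 among the GNAS probe sets that passed the floor. The probe sets were not told apart by transcript here.

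Enzymes that trim and finish the peptide ends passed the floor in 8 of 10 listed cases, with a median of 0.29 and 0 beyond 2-fold in either direction. PAM, which amidates peptide C termini, had 91.6 in C4-2B against 153 in C4-2B-MDVR (0.74), and a further PAM probe set was at 0.80. CPD, a carboxypeptidase of the trans-Golgi related to CPE, had 472 and 338 (−0.48). The aminopeptidase RNPEP (0.39) and the tyrosylprotein sulfotransferase TPST2 (0.39) came next in size. QPCT, which forms the pyroglutamate found at the start of neurotensin, was under the floor on both arrays, with 9.03 and 8.34. The related QPCTL was just above the floor on both arrays, with 46.9 and 45.3 (−0.05).

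Among 53 other prohormones listed 32 passed the floor, with 3 higher by 2-fold or more, 0 lower and a median of 0.12. The 3 were the relaxin genes RLN1 and RLN2 and the stanniocalcin gene STC1. RLN2, the circulating relaxin of prostate and ovary, had 56.4 in C4-2B against 174 in C4-2B-MDVR (1.62). RLN1 had 27.8, under the floor, and 101 (1.87, at least 2.41-fold higher). RLN1 and RLN2 are close copies and their probe set names mark shared sequence, so these may not be separate readings. STC1 had 69.9 and 143 (1.03), and with median centring or loess its difference was 0.98 or 0.97, within 2-fold. The next by size was EDN2, an endothelin, at 0.90. Galanin, GAL, had 973 and 1042 (0.10), and neuromedin U, NMU, had 668 and 597 (−0.16), so both were well above the floor in both lines and close to equal. Under the floor on both arrays were 21 prohormone genes, among them SST, GRP, VIP, NPY, INS and TAC1.

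Of 7 listed receptors for these peptides 5 passed the floor, with a median of 0.22. SORL1, a sorting receptor of the Golgi and endosomes that binds neurotensin, was the 1 gene beyond 2-fold. Its probe set with the highest mean had 148 in C4-2B against 450 in C4-2B-MDVR (1.61). Another SORL1 probe set, with 25.7, under the floor, and 216, differed by 3.07, and the one left, with 36.0 and 41.9, was under the floor on both arrays. The neurotensin receptor NTSR1 had 53.1 and 58.0 (0.13), the glucagon receptor GCGR 87.8 and 81.6 (−0.11) and the GLP-1 receptor GLP1R 71.2 and 90.7 (0.35). These values are near the floor. NTSR2 and the GLP-2 receptor GLP2R were under it on both arrays.

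Of 14 peptidases that break down secreted peptides 11 passed the floor, with a median of −0.11. DPP4, the dipeptidyl peptidase that inactivates the glucagon-like peptide GLP-1, was the 1 gene beyond 2-fold and was lower in C4-2B-MDVR. Its 3 probe sets had 722, 578 and 576 in C4-2B against 352, 201 and 172 in C4-2B-MDVR, log2 differences of −1.04, −1.53 and −1.74. All 3 were above the floor on both arrays and had the same sign, and with quantile normalization the first was at −0.96, within 2-fold. THOP1 and NLN, which cut neurotensin, were at −0.53 and −0.39, with NLN probe sets above the floor from −0.81 to −0.03. PREP, a prolyl endopeptidase, was at 0.41.

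Of 18 genes for the assembly and release of dense-core granules 13 passed the floor, with a median of 0.01, 1 of them 2-fold or more higher and 1 lower. SYT4, a synaptotagmin of granules, had 80.9 in C4-2B against 1716 in C4-2B-MDVR (4.41). CADPS2, which primes granules for release, had 286 in C4-2B and 20.5, under the floor, in C4-2B-MDVR (−3.80, at least 6.57-fold lower). RAB27B (−0.69) and RAB27A (0.66), which dock secretory vesicles, differed in opposite directions. The granule membrane protein PTPRN and the monoamine transporters SLC18A1 and SLC18A2 were under the floor on both arrays.

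Of 12 listed transcription factors that act at the glucagon gene or in endocrine cells 9 passed the floor, with a median of 0.25, 2 of them 2-fold or more higher (1 by bound) and 0 lower. LEF1, a partner of beta-catenin, had 122 in C4-2B against 515 in C4-2B-MDVR (2.07). TCF7L2, the beta-catenin partner linked to GCG transcription in the gut, had 371 and 380 (0.04). The 7 TCF7L2 probe sets, all above the floor, ran from 0.04 to 0.48. NKX2-2, an islet factor, had 24.3, under the floor, and 54.8 (1.17, at least 1.31-fold higher). PAX6, an activator of GCG in alpha cells, had 40.6, under the floor, and 52.6 (0.38). REST, which represses neuronal and endocrine genes, had 242 and 156 (−0.64), and a further REST probe set was at 0.00. FOXA2, ISL1 and INSM1 were under the floor on both arrays.

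Listed markers of the cell types known for glucagon held 0 genes beyond 2-fold. By the probe set with the highest mean, 3 of 4 listed markers of islet alpha cells were above the floor, with log2 differences from 0.16 to 0.24. Their summed intensity, with the marker under the floor included, was 252 in C4-2B against 291 in C4-2B-MDVR. A further probe set of the alpha cell marker IRX2 went the other way (−0.46), with 48.7 in C4-2B and 35.3, under the floor, in C4-2B-MDVR. All 5 listed beta cell markers were under the floor on both arrays (sums of 120 and 125), INS included. Of 6 markers of L cells and other enteroendocrine cells 3 were above the floor, from −0.32 to −0.0048, with sums of 218 and 213. Of 5 neuroendocrine markers besides the granins 4 were above the floor, and ENO2, the neuronal enolase, was the 1 beyond 2-fold, at 33.2 in C4-2B, under the floor, and 231 in C4-2B-MDVR (at least 5.52-fold higher). SYP, synaptophysin, had 48.4 in C4-2B and 38.1, under the floor, in C4-2B-MDVR. NCAM1 was at 0.08 and DLL3 at −0.29, with DLL3 probe sets from −0.29 to 0.39. INSM1 was under the floor on both arrays. Of the 7 listed markers of prostate luminal cells all were above the floor on both arrays, with KLK3 (−5.61, and from −6.24 to −0.35 over its probe sets) and KLK2 (−2.10) 2-fold or more lower. By the probe set with the highest mean the other 5 were within 2-fold, and the median of the 7 was −0.08. ACP3 was at 0.99 (158 in C4-2B against 315 in C4-2B-MDVR), FOLH1 at 0.21, HOXB13 at 0.05, FOXA1 at −0.08 and TMPRSS2 at −0.27. A further FOXA1 probe set was lower by more than 2-fold, with 370 in C4-2B against 163 in C4-2B-MDVR (−1.18). A further HOXB13 probe set was at 0.68. With each gene read from its probe set with the highest mean, the fibroblast and blood or endothelial lists held 0 genes beyond 2-fold. For the fibroblast marker COL1A1 that probe set was at −0.23. Further COL1A1 probe sets had 55.4 and 45.7 in C4-2B against 116 and 105 in C4-2B-MDVR (1.07 and 1.20), beyond 2-fold. The part of other cell types in the GCG and NTS values was not tested.

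Position on the chromosome was not used to choose these genes. The 5 nearest protein-coding genes with a probe set on each side of each of the 8 genes, in RefSeq order, came to 80 neighbours, of which 49 passed the floor. By 2-fold or more 3 of these were higher and 4 lower, with a median of −0.09. GCG, on chromosome 2, lies between DPP4 and FAP, with the RNA sensor gene IFIH1 next after FAP. DPP4 was lower (−1.04), FAP was under the floor on both arrays, and IFIH1 had 55.5 in C4-2B against 225 in C4-2B-MDVR (2.02). GCA (0.63), TANK (0.43) and PSMD14 (0.15), farther out, were within 2-fold. NTS, on chromosome 12, had 4 neighbours above the floor, and these ran from −0.17 to 0.30. CPE, on chromosome 4, had 5 neighbours above the floor, all on one side of it and all with differences below 0. TMEM192 (−1.50) and KLHL2 (−1.26) were 2-fold or more lower and MSMO1, a sterol oxidase, was at −0.93, while TRIM61 and GK3 were within 0.02 of 0 and CPE itself was at 0.66. Beside SCG2, the protease inhibitor gene SERPINE2 (74.9 in C4-2B against 211 in C4-2B-MDVR) and SGPP2 (1.48, at least 1.66-fold) were higher, and beside SCG3, the kinase gene MAPK6 (−1.43) was lower.

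**Figure D4:**
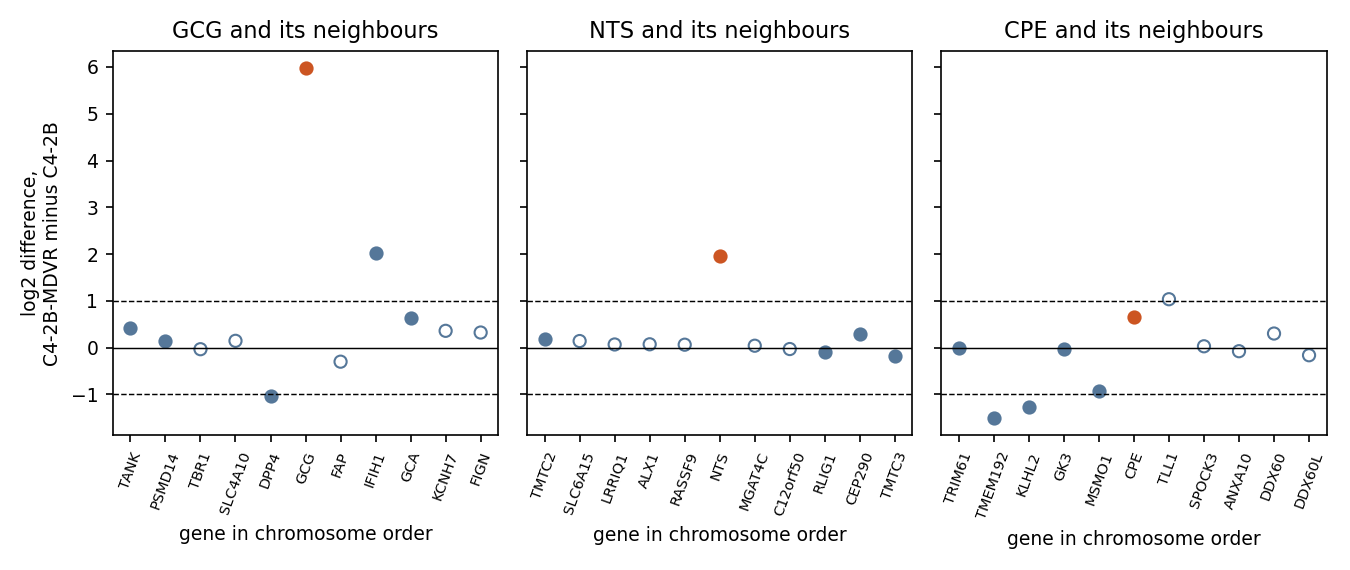
Log2 difference (C4-2B-MDVR minus C4-2B) of GCG, NTS and CPE (orange) and of the 5 nearest measured protein-coding genes on each side (blue), in chromosome order, with dashed lines at 2-fold. Open circles are genes under the detection floor on both arrays, whose values have no order. GCG (5.97) stands between DPP4 (−1.04) and FAP, NTS (1.96) between genes near 0, and CPE (0.66) beside genes below 0.

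The genes above the floor with a log2 difference nearest to that of GCG were DAPK1 (6.12), FSTL5 (5.59), LRRN1 (5.41), TENM2 (5.20) and BEX1 (4.86). The first 4 were, like GCG, under the floor in C4-2B, and BEX1 was above it. Nearest to NTS were CA12 (1.96), BTG1 (1.97), FN1 (1.97), ADSS1 (1.97) and LMO4 (1.94), all above the floor on both arrays. Likeness here is the gap between differences over 2 arrays.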

How the data were processed

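Total RNA of each line (100 ng) was amplified, fragmented, biotin-labelled and hybridized to an Affymetrix array, per the labels' protocols. The authors deposited linear intensity values for 54675 probe sets. How the authors corrected, scaled and summarized them is not given in the sources used here. The values were taken as they stand, log2 was taken, and differences are C4-2B-MDVR minus C4-2B.

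Gene names came from the 2016 platform annotation, checked by Entrez identifier against RefSeq of GRCh38.p14: 41097 had 1 symbol, of which 41043 matched, and 1801 had several and named no gene. The probe set with the highest mean stood for a gene. A gene was above the floor when its brighter array reached that array's median, and values under it give bounds ("at least N-fold"). All members of the fixed lists were analysed, and up to 4 with the largest differences were named, with others chosen after their values were seen. The genes and lists were chosen with earlier results of these data known. The calling of 2-fold differences was tested on simulated data, with shifts planted only in genes above the floor. The bounds for values under the floor were not tested in this way. No test of significance was possible with 1 array per line. Scalings, floors, thresholds and probe set rules were varied. Python 3.11.15, numpy 2.4.6, pandas 2.3.3, statsmodels 0.14.6 and matplotlib 3.10.9 were used.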

Additional observations from a re-analysis of the deposited data

How the results depend on the processing

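GCG and NTS were higher and 0 of the 8 genes 2-fold or more lower under every scaling, probe set rule and threshold tried. Over median centring, quantile normalization and loess (span 0.3) the log2 difference did not go below 5.90 for GCG and ran from 1.89 to 1.94 for NTS and from 0.61 to 0.74 for CPE. Against the floor, in place of its value in C4-2B, GCG was at 3.66 and NTS at 1.76. With the mean of its probe sets CPE was at 0.45. With the floor at the 75th percentile 1 gene (GCG) in place of 2 was 2-fold or more higher, since NTS was then under the floor, and at 1.5-fold 3 were, CPE included. In the 8 lists of other genes the 8 higher genes became 4 with the floor at the 75th percentile, 16 at 1.5-fold and 5 at 3-fold. The 2 lower ones became 1 with quantile normalization, 6 at 1.5-fold and 1 at 3-fold. No paired analysis was possible because each line has 1 array. Signal over background limits what can be said of the granins, the convertases named as under the floor and the peptide receptors near it.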
